A study of Mus musculus with 4 samples.

Results

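The 36 genes described here encode the integrins and the proteins that tie them to the actin cytoskeleton, in the RNA-seq of primary mouse embryonic fibroblasts (MEFs) from 2 WT and 2 *Phf2* KO samples. They were chosen by symbol: 18 *Itga* and 8 *Itgb* genes, plus *Tln1*, *Tln2*, *Vcl*, *Pxn*, *Zyx*, *Ptk2*, *Ilk*, *Parva*, *Fermt2* and *Lims1*, out of 24391 gene symbols in the count table. The study examined how cohesin and Phf2 affect each other's position in the genome. Phf2 is a PHD finger protein that binds methylated histone H3 at active start sites and interacts with cohesin. The RNA-seq of the study tested whether loss of Phf2 changes gene expression, and the paper reported very few differences. All 4 libraries are labelled *Phf2* flox/flox, ERCre/+, so that CreERT2, a tamoxifen-dependent Cre expressed from *Rosa26*, was also present in the WT cells, and only the *Phf2* KO libraries are labelled Tamoxifen. The MEFs came from E13.5 embryos and were held in quiescence, and the protocol, worded alike for every library, gives 0.5 µM 4-OHT for 7 days in charcoal-treated serum. Which vehicle the WT cells received is not stated by name, and with no library given 4-OHT without recombination, loss of Phf2 and exposure to 4-OHT cannot be told apart. The labels number the replicates 1 and 2 in each group without saying whether they were separate embryos or cultures (sex-linked genes differed between the numbers, as given in the closing section), so p-values measure only the spread between these samples.

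Integrins are receptors made of 1 alpha and 1 beta subunit, and the pair decides which ligand is held: collagen, laminin, or proteins with an Arg-Gly-Asp (RGD) sequence such as fibronectin and vitronectin. On the inside of the membrane, talins and kindlins bind the beta tail and switch the receptor to its active shape, and vinculin, paxillin, zyxin, focal adhesion kinase and the ILK-PINCH-parvin complex build the focal adhesion that joins it to actin. Fibroblasts use these structures to hold and pull on the collagen and fibronectin around them, whereas integrins with the *Itgb2* or *Itgb7* subunit belong to leukocytes and are given apart.

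The 4 alpha subunits that bind collagen with the common beta subunit *Itgb1* share a ligand, yet their levels ranged from the most abundant alpha subunit in these cells down to counts in single digits. For this reason their promoters are shown beside each other. Each line gives the 250 bases upstream of the annotated start on the strand of the gene, 5′ to 3′, from RefSeq on GRCm38.p6, with every CG dinucleotide in capitals.
Itga11: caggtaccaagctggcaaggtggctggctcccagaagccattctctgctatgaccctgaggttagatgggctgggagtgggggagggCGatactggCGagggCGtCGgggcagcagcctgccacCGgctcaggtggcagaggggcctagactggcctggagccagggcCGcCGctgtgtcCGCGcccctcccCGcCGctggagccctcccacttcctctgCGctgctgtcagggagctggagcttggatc
Itga1: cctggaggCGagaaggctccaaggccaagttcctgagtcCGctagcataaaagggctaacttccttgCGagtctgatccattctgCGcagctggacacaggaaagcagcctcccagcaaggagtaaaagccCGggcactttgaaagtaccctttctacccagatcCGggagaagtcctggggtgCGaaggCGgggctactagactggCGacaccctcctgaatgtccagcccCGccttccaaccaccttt
Itga10: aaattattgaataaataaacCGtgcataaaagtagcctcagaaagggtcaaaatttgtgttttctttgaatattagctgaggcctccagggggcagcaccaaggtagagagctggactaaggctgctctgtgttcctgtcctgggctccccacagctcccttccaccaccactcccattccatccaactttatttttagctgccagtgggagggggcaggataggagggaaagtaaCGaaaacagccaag
Itga2: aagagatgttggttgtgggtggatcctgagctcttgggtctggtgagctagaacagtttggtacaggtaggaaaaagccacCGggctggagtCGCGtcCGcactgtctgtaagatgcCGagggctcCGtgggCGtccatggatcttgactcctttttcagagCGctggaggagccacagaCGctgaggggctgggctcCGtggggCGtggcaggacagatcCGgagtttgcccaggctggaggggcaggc
The windows lie at chr9:62677605-62677854 on the plus strand (*Itga11*), chr13:115101965-115102214 on the minus strand (*Itga1*), chr3:96645334-96645583 on the plus strand (*Itga10*) and chr13:114932101-114932350 on the minus strand (*Itga2*). They held 12, 10, 2 and 12 CG dinucleotides and 68.4%, 57.6%, 48% and 60.8% G and C, in the same order. Over 32851 such windows the quartiles were 2, 6 and 16 CG dinucleotides and 45.2%, 52.4% and 61.2% G and C. The most and the least abundant of the 4 genes thus had the same number of CG dinucleotides in this window. Of the 36 genes, 24 had a window in the table.

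Levels between genes were compared as library-scaled counts (CPM) per kilobase of annotated exon, since longer transcripts collect more reads. On this scale the fibroblast integrins were dominated by few subunits. *Itgb1*, the partner of most fibroblast alpha subunits (chr8:131209554-131257100 on mm9, plus strand, 17 exon blocks), had 216 ± 1.62 CPM per kilobase in WT and 240.2 ± 10.6 in *Phf2* KO MEFs (mean ± SD, n = 2 each). *Itga11*, the alpha subunit of the collagen I receptor of mesenchymal cells (chr9:62525633-62631789, plus strand, 30 exon blocks), had 215 ± 34.4 in WT and 218 ± 3.48 in *Phf2* KO. These top levels did not differ from each other beyond their spread in WT, and *Itgb1* was the higher of the pair in *Phf2* KO. *Itgb5*, which pairs with *Itgav* to bind vitronectin, followed with 136 ± 24.2 and 148 ± 3.45, beside zyxin (*Zyx*, 129 ± 8.90 and 129 ± 8.30), an actin regulator of mature adhesions.

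Below them lay *Tln1* (99.4 ± 2.57 and 115 ± 10.6) and *Vcl* (90.8 ± 12.5 and 91.9 ± 2.83), the talin and the vinculin of most adhesions, which overlapped in WT. *Itga7*, a laminin receptor best known from muscle, had 53.7 ± 16.4 in WT and 70.4 ± 0.0156 in *Phf2* KO, and *Itga5*, the fibronectin receptor alpha subunit, had 40.6 ± 2.02 and 43.4 ± 2.31. *Itgav* (16.4 and 15.8) and *Itga8* (13.0 and 13.2), a pair of further RGD-binding alphas, stood lower. *Itga3*, *Itga1* and *Itga9* held between 4.74 and 6.56 in the group means, and *Itga10*, *Itga6*, *Itga2b* and *Itga4* between 0.677 and 2.19. *Itgb4* and *Itgb8* closed the order of the tested genes outside the leukocyte integrins, with 0.230 and 0.148 in WT. Over these 17 integrin genes the mean level ran from 0.126 CPM per kilobase for *Itgb8* to 228 for *Itgb1*, a range of 1809-fold. With the length of the longest coding transcript in place of all exons, *Itgb1* and *Itga11* kept ranks 1 and 2, whereas *Itga7* went from 7 to 9 and *Pxn* from 17 to 12.

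**Figure D1:**
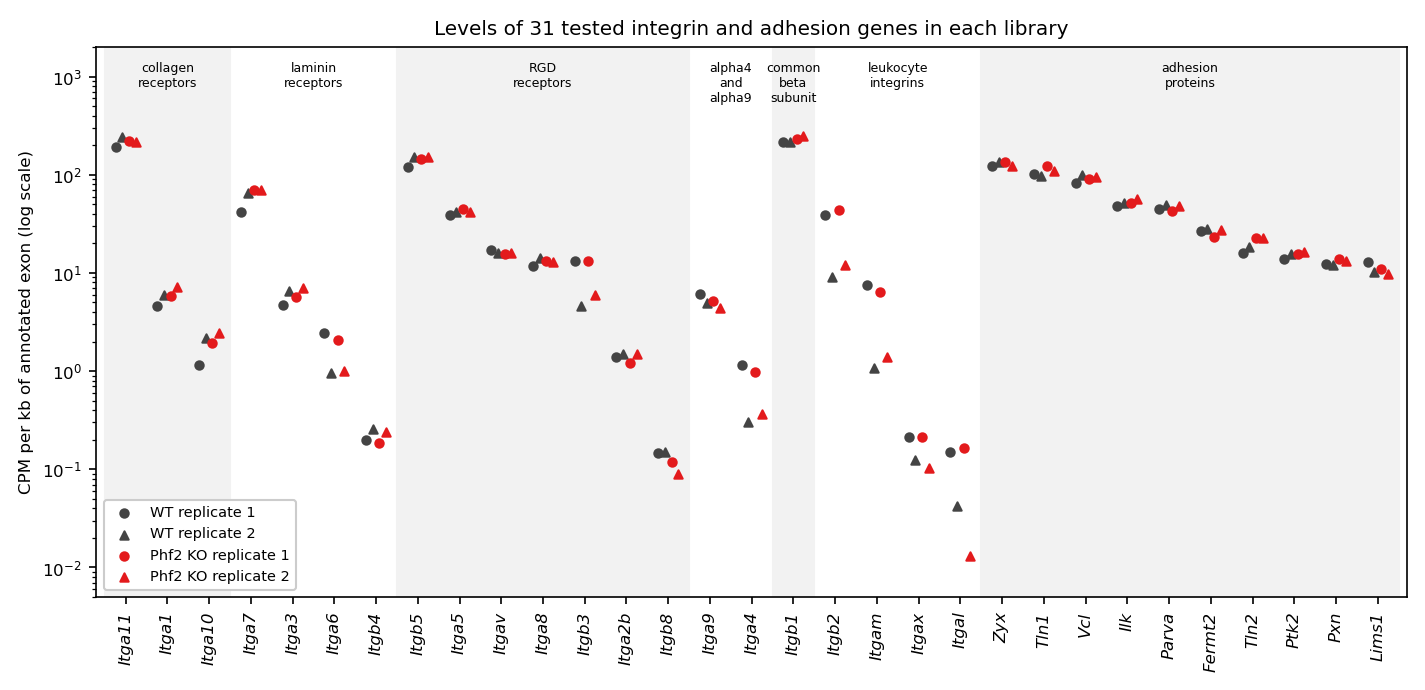
Level of each tested gene in each library, as CPM per kilobase of annotated exon on a log axis, grouped by ligand or role (circles, replicate 1; triangles, replicate 2; grey, WT; red, *Phf2* KO). *Itgb1* and *Itga11* sit at the top, and replicate 1 lies above replicate 2 in both groups for *Itgb3*, *Itga4*, *Itga6* and the leukocyte integrins.

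Because every receptor needs 1 alpha and 1 beta chain, the levels were also expressed as shares of the summed alpha or beta level. *Itga11* made up 59.2% and 60.0% of the summed alpha level in the WT libraries and 56.9% and 56.7% in the *Phf2* KO libraries. *Itga7* made up 13.0% and 16.3% of it in the WT libraries, beside 18.1% and 18.5% in those of *Phf2* KO, and *Itga5* between 10.5% and 12.1% in all 4 libraries. Both *Phf2* KO shares lay below both WT shares for *Itga11*, and also for the scarcer *Itga8* and *Itgb8*, and above them for *Itga7* and *Itga1*. Those of *Itga2* lay below and those of *Itgb6* above as well, but both genes had 7 counts or fewer in every library. Shares of 1 sum depend on each other, and the level of *Itga11* itself overlapped between the groups. Among the beta subunits, *Itgb1* held between 57.8% and 61.8% and *Itgb5* between 34.2% and 40.8%, with the groups overlapping for both. *Itgb3*, the beta subunit of the vitronectin receptor also found on platelets and osteoclasts, took 3.84% and 3.35% in the libraries numbered 1 but 1.22% and 1.49% in those numbered 2. With 2 samples against 2, an exact two-sided permutation test cannot give a p below 0.333, so no share was tested.

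**Figure D2:**
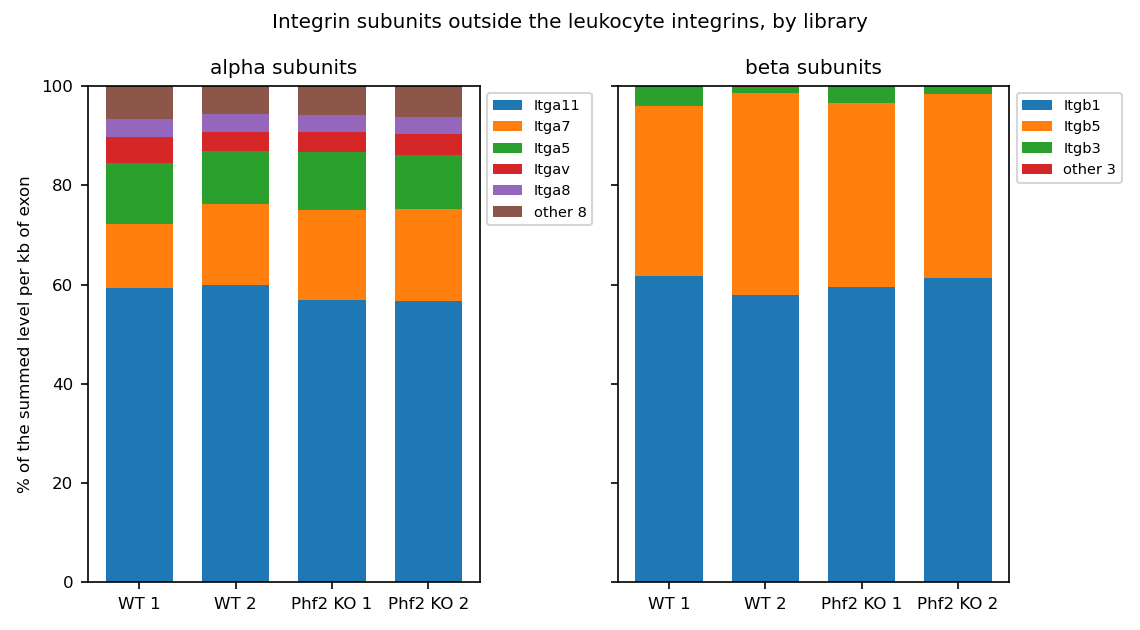
Share of each integrin subunit in the summed level per kilobase of exon, in percent, for 13 alpha and 6 beta subunits outside the leukocyte integrins, with 1 bar per library. *Itga11* fills over 56% of each alpha bar and *Itgb1* over 57% of each beta bar.

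The targeted gene was examined first. *Phf2* (chr13:48897119-48966254, minus strand) had 135 and 142 CPM in the WT libraries and 70.2 and 89.8 CPM in the *Phf2* KO libraries. Both *Phf2* KO values lay below both WT values, at 0.579 times the WT level by the fit (log2 fold change -0.79 ± 0.14 SE). Reads from exons outside the floxed part still count toward this gene. The edgeR quasi-likelihood test gave an unadjusted p = 0.00332 and an adjusted p of 0.999, and DESeq2 gave an adjusted p of 0.00320. An edgeR fit with the replicate number added as a block gave an adjusted p of 7.7e-19 (log2 fold change -0.80). The edgeR test without the block thus did not call the targeted gene itself.

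None of the integrin and adhesion genes passed the test between *Phf2* KO and WT. Of the 36, 31 passed the filter on low counts, and 0 were called higher and 0 lower at an adjusted p under 0.1 (edgeR quasi-likelihood test with Benjamini-Hochberg adjustment over 13668 genes, every member at 0.999). The same test called 0% of all genes higher and 0.00732% lower, which is the single gene *Dkk2*. DESeq2, which called 0.0625% of its genes higher and 0.338% lower, and limma-voom also called 0 members in either direction. At an unadjusted p under 0.05, 1 member was higher (*Tln2*) and 0 were lower, where 1.54% and 2.67% of all genes were. The 5 genes left out by the filter were *Itga2* (6 and 7 counts in WT, 2 and 1 in *Phf2* KO), *Itgb6* (0 and 0, 3 and 2), *Itgad*, *Itgae* and *Itgb7*, the last 3 with at most 12 counts in any library. In a library, 3 counts correspond to between 0.116 and 0.145 CPM, so these genes lay near the level of a few counts and no fold change is given for them. With the replicate number added to the fit as a block, edgeR called 5 of the 31 higher (5.77% of all genes) and 0 lower (5.2% of all genes), which is set out with the other alternatives in the closing section.

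The 27 tested members outside the leukocyte integrins had a median log2 fold change of 0.02 (quartiles -0.10 and 0.15), beside 0.01 over all genes tested (-0.12 and 0.13). The fitted value was positive for 16 of the 27 (59.3%) and for 51.2% of all genes. A difference beyond 0.3 on the log2 scale in either direction was fitted for 5 of the 27 (18.5%) and for 17.95% of all genes. Both *Phf2* KO libraries lay above both WT libraries for 7 of the 27 (25.9%), where 15.5% of all genes did: *Itgb1*, *Itga7*, *Tln1*, *Tln2*, *Ilk*, *Ptk2* and *Pxn*. Both lay below for 2 of the 27 (7.41%), *Itgav* and *Itgb8*, where 18% of all genes did. These counts moved with the scaling, to 8 above and 1 below with RLE size factors and to 6 and 1 with library size alone. *Ilk* and *Ptk2* left the first group under library size alone, *Itga5* entered it under both, and *Itgav* left the second under both. Within the replicate numbers, 10 of the 27 were higher in *Phf2* KO for number 1 and for number 2 (32.6% of all genes were), 7 were lower for both (30.2%), and 10 had opposite signs (37.2%).

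**Figure D3:**
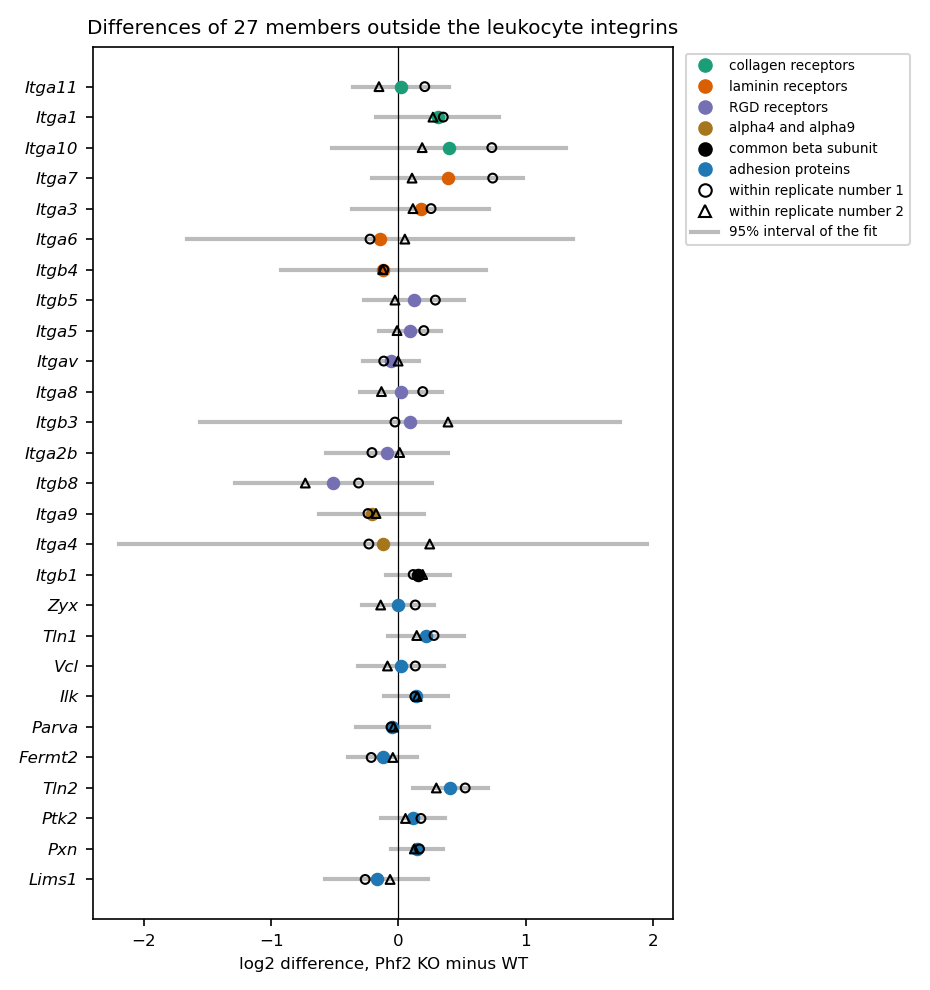
Log2 difference between *Phf2* KO and WT for the 27 tested members outside the leukocyte integrins, with the fitted value (filled, coloured by class), its 95% interval (grey bar) and the ratio within each replicate number (open symbols). Of these intervals, that of *Tln2* (0.11 to 0.70) alone lies clear of 0.

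Among the collagen receptors, the 3 tested alpha subunits had positive fitted values, as had 51.2% of all genes, and none passed the test. That of *Itga11* was 0.02, with opposite signs within the replicate numbers (0.21 and -0.15). With the replicate block, edgeR called *Itga1* and *Itga10* higher (adjusted p = 0.0107 and 0.0398). *Itga1*, the alpha subunit of a collagen IV-binding receptor (chr13:115748287-115892172, minus strand, 30 exon blocks), had 36.8 and 48.0 CPM in WT and 47.0 and 58.0 CPM in *Phf2* KO. The groups overlapped by a small margin, and replicate 2 was the higher library in each. The fitted log2 fold change of *Itga1* was 0.31 ± 0.18 (SE), with 0.35 within replicate number 1 and 0.27 within number 2 (unadjusted p = 0.158 in the edgeR quasi-likelihood test), and between 0.14 and 0.50 when a library was left out. *Itga10*, a collagen II receptor best known from chondrocytes (chr3:96449507-96468442, plus strand, 29 exon blocks), had 5.97 and 11.2 CPM in WT and 9.94 and 12.8 CPM in *Phf2* KO. The lowest value was WT replicate 1, and the remaining 3 libraries lay between 9.94 and 12.8 CPM. Its fitted log2 fold change was 0.40 ± 0.35, with 0.73 and 0.19 within the replicate numbers, and it lay between 0.03 and 0.91 when a library was left out. *Itga11*, whose promoter and that of *Itga10* are printed above, had 981 and 1230.2 CPM in WT and 1132 and 1107 CPM in *Phf2* KO, with both *Phf2* KO values between the WT values. On the strand of *Itga1* the annotation also holds *Pelo*, so that reads in the overlap cannot be assigned to either gene with certainty.

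The laminin receptors were split, with 2 positive and 2 negative fitted values. *Itga7* (chr10:128370869-128395333, plus strand, 27 exon blocks) had 179 and 278 CPM in WT and 299.7 and 299.8 CPM in *Phf2* KO. The *Phf2* KO libraries were nearly equal and lay above both WT libraries, of which replicate 1 was much the lower. The fitted log2 fold change of *Itga7* was 0.39 ± 0.22 (95% interval -0.20 to 0.98, unadjusted p = 0.148 in the edgeR quasi-likelihood test), with 0.74 within number 1 and 0.11 within number 2. It was 0.12 at its lowest and 0.73 at its highest when a library was left out. The edgeR fit with the replicate block called *Itga7* higher (adjusted p = 6.9e-05). *Itga3*, a receptor for laminins of basement membranes, had 27.2 and 37.4 CPM in WT and 32.5 and 40.5 CPM in *Phf2* KO. *Itga6* had 22.1 and 8.67 CPM in WT and 18.9 and 8.99 CPM in *Phf2* KO, and its partner *Itgb4*, which builds hemidesmosomes in epithelia, stayed between 1.30 and 1.81 CPM. In both of these the groups overlapped. Epithelial markers summed to 0.998 CPM or less, with *Krt5* and *Krt14* at 3 counts or fewer in every library.

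The RGD receptors hold the largest negative fitted value of the 31 tested genes, that of *Itgb8*. *Itgb8*, which pairs with *Itgav* to activate latent TGF-beta (chr12:120396495-120477275, minus strand, 14 exon blocks), had 39 and 43 counts in WT and 27 and 24 counts in *Phf2* KO, or 1.62, 1.66, 1.30 and 0.998 CPM. Both *Phf2* KO values were below both WT values, at counts low enough that counting error is a large part of the spread. Its fitted log2 fold change was -0.51 ± 0.29 (95% interval -1.29 to 0.26, unadjusted p = 0.147 in the edgeR quasi-likelihood test), with -0.31 and -0.73 within the replicate numbers, and between -0.71 and -0.33 when a library was left out. It was the 1 member lower by over 0.3 within both numbers, as were 5.16% of all genes, and 0 members were higher by as much, as were 4.17%. *Tln2*, higher by 0.526 and 0.299 within the numbers, fell just short of this cut. *Itgav* had 183 and 171 CPM in WT and 169 and 170.5 CPM in *Phf2* KO. *Itga5* had 172 and 184 CPM in WT and 197 and 183 CPM in *Phf2* KO, and *Itgb5* had 399.7 and 515 beside 489 and 506, so both overlapped between the groups. *Itga8*, a nephronectin receptor, lay between 84.8 and 104 CPM, with both *Phf2* KO values inside the WT range.

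*Itga2b*, the alpha subunit of the platelet fibrinogen receptor, had between 6.61 and 8.15 CPM in the 4 libraries. The platelet markers summed to 12.3 CPM or less in WT and 12.9 or less in *Phf2* KO, most of it *Gp1bb* (between 155 and 282 counts), while *Pf4* had between 13 and 34 counts and *Gp9* and *Ppbp* had 3 counts or fewer in every library. The part of platelet markers in the value of *Itga2b* was not tested. *Itga9*, a tenascin receptor, had 46.6 and 37.8 CPM in WT and 39.5 and 33.4 CPM in *Phf2* KO, lower within both numbers but with overlapping groups. The common subunit *Itgb1* had 876 and 885 CPM in WT and 949.8 and 1011 CPM in *Phf2* KO. Both *Phf2* KO values of *Itgb1* were the higher ones, by a fitted 0.15 ± 0.10 on the log2 scale (95% interval -0.10 to 0.41, unadjusted p = 0.171 in the edgeR quasi-likelihood test), with 0.12 and 0.19 within the replicate numbers.

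Of the 10 adhesion proteins, 6 had positive and 4 negative fitted values, with a median of 0.07, and in 5 of them both *Phf2* KO libraries lay above both WT libraries. *Tln2*, a talin enriched in striated muscle and brain (chr9:67064894-67407510, minus strand, 64 exon blocks), had 198 and 232 CPM in WT and 284 and 286 CPM in *Phf2* KO. The *Phf2* KO libraries were nearly equal and both stood above the WT libraries. The edgeR fit with the replicate block called *Tln2* higher (adjusted p = 9.5e-05). The log2 fold change of *Tln2* was 0.41 ± 0.11 (95% interval 0.11 to 0.70, unadjusted p = 0.0173 and adjusted p = 0.999 in the edgeR quasi-likelihood test), with 0.53 within number 1 and 0.30 within number 2, and between 0.31 and 0.51 when a library was left out. *Tln1*, the broadly expressed talin, had 992 and 957 CPM in WT and 1205 and 1058 CPM in *Phf2* KO. On the scale per kilobase of exon, *Tln1* exceeded *Tln2* in every library. Muscle markers, examined because *Itga7* and *Tln2* are both known from muscle, summed to 53.7 and 24.2 CPM in WT and to 32.2 and 14.3 CPM in *Phf2* KO, with *Myod1*, *Myog* and *Ckm* at 3 counts or fewer in every library. The sum was almost entirely *Des* (53.1, 23.5, 32.0 and 14.1 CPM in the same order), and its part in the values of *Itga7* and *Tln2* was not tested.

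The remaining adhesion proteins differed little. Focal adhesion kinase (*Ptk2*) had 70.7 and 79.8 CPM in WT and 79.9 and 82.9 CPM in *Phf2* KO, and the scaffold paxillin (*Pxn*) had 101 and 99.2 CPM in WT and 114 and 108 CPM in *Phf2* KO. Of the ILK-PINCH-parvin complex, *Ilk* had 130.3 and 141 CPM in WT and 143 and 156 CPM in *Phf2* KO, whereas *Lims1*, the PINCH protein, had 67.5 and 52.6 beside 56.3 and 50.3 CPM. *Ilk* was thus higher and *Lims1* lower within both replicate numbers, although their products work in 1 complex, and neither passed the test. *Parva* lay between 437 and 499 CPM, and the kindlin *Fermt2* between 87.3 and 105 CPM. *Vcl* had 429 and 521 CPM in WT and 470.1 and 491 CPM in *Phf2* KO, and *Zyx* between 460.4 and 508 CPM, with overlapping groups in both. Over the 21 tested members for which no fold change is given by the naming rule, the fitted log2 fold changes ran from -0.21 (*Itga9*) to 0.22 (*Tln1*), with a median of 0.02 and a lowest unadjusted p of 0.119 in the edgeR quasi-likelihood test.

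The 4 tested leukocyte integrins differed between the replicate numbers far more than between the genotypes. Of the untested ones, *Itgb7* had fewer counts in replicate 1 of each group (3 and 9 in WT, 5 and 12 in *Phf2* KO). *Itgad* and *Itgae* had at most 5 counts in any library. *Itgb2*, the beta subunit of the leukocyte receptors (chr10:76992997-77028453, plus strand), had 118 and 133 CPM in the WT and *Phf2* KO libraries numbered 1, and 27.7 and 36.6 CPM in those numbered 2. *Itgam*, its alpha partner on macrophages and neutrophils (chr7:135206154-135271674, plus strand), had 48.1 and 40.9 CPM in the libraries numbered 1 and 6.78 and 8.90 CPM in those numbered 2. The libraries numbered 1 were the high ones in both groups, so WT and *Phf2* KO overlapped. The log2 difference between replicate 1 and 2 of *Itgam* was 2.83 in WT and 2.20 in *Phf2* KO, and that of *Itgb2* 2.09 and 1.86. Between the genotypes, *Itgb2* had a fitted log2 fold change of 0.22 ± 0.89 (SE) and *Itgam* of -0.14 ± 1.11. Within the replicate numbers, *Itgb2* was higher in *Phf2* KO by 0.17 and 0.40 on the log2 scale, and the blocked fit called it, whereas *Itgam* had opposite signs (-0.23 and 0.39). *Itgax*, the alpha subunit common on dendritic cells, had 21 and 13 counts in WT and 18 and 10 in *Phf2* KO (log2 fold change -0.10 ± 0.55), and *Itgal*, that of lymphocytes, 23 and 7 beside 22 and 2 (-0.12 ± 1.17). Leaving out a library unbalances the replicate numbers between the groups, and the fitted values then ranged from -2.80 to 1.04 for *Itgal*, -1.62 to 1.89 for *Itgam*, -0.71 to 0.35 for *Itgax* and -0.99 to 1.62 for *Itgb2*.

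Markers of macrophages moved with these genes. All 15 macrophage markers of the list had the higher CPM in replicate 1 of each group, by a negligible margin for *Cx3cr1* in *Phf2* KO (5 and 1 counts in WT, 7 and 8 in *Phf2* KO). Their summed level was 4031 and 4597 CPM in the WT and *Phf2* KO libraries numbered 1 and 885 and 1394 CPM in those numbered 2. The largest part was *Lyz2*, with 1325 and 1726 CPM in the former and 315 and 574 CPM in the latter. Between the genotypes the markers were split within number 1, where *Lyz2* was higher in *Phf2* KO and *Adgre1* lower (110 CPM in WT, 82.1 in *Phf2* KO). Markers of fibroblasts, the labelled cell type, summed to between 58851 and 70780.1 CPM. In bulk RNA, fewer cells of a type and less RNA per cell cannot be told apart.

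Outside the leukocyte integrins, 3 more members differed by over 1 log2 unit between the replicate numbers in both groups, the direction being higher in replicate 1 as for the macrophage markers. *Itga4*, the alpha subunit that binds *Vcam1* and fibronectin, had 16.3 and 13.9 CPM in the WT and *Phf2* KO libraries numbered 1 and 4.28 and 5.08 CPM in those numbered 2. *Itgb3* had 77.998 and 76.6 CPM in the libraries numbered 1 and 26.8 and 35.1 CPM in those numbered 2. With *Itga6*, *Itgal*, *Itgam* and *Itgb2* they made 6 of the 31 tested members, whereas 3.99% of all genes tested differed so, and 0 members were lower by as much in replicate 1, beside 0.805% of all genes. The part of the macrophage markers in the values of the leukocyte integrins, *Itga4*, *Itga6* and *Itgb3* was not tested. Endothelial markers summed to 21.99 and 16.3 CPM in the libraries numbered 1 and 11.8 and 9.28 in those numbered 2, and followed *Kdr*, which had 18.3 and 12.5 CPM in the former and 8.94 and 5.62 CPM in the latter. *Tek* was nearly equal between the *Phf2* KO replicates (3.23 and 3.16 CPM), *Pecam1* and *Cdh5* had at most 6 counts, and *Tie1* and *Emcn* had 3 counts or fewer. Of the tested collagen and laminin receptors, *Itga10*, *Itga3*, *Itga1* and *Itgb4* went the other way. Their log2 differences between replicate 1 and 2 were -0.91, -0.46, -0.39 and -0.36 in WT. In *Phf2* KO they were -0.36, -0.32, -0.30 and -0.35. *Itga7* was lower in replicate 1 in WT (-0.63) but not in *Phf2* KO (-0.00), and *Itga11* had opposite signs (-0.33 and 0.03). The difference between replicates was larger than that between genotypes for 21 of the 31 tested members and for 58% of all genes tested.

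**Figure D4:**
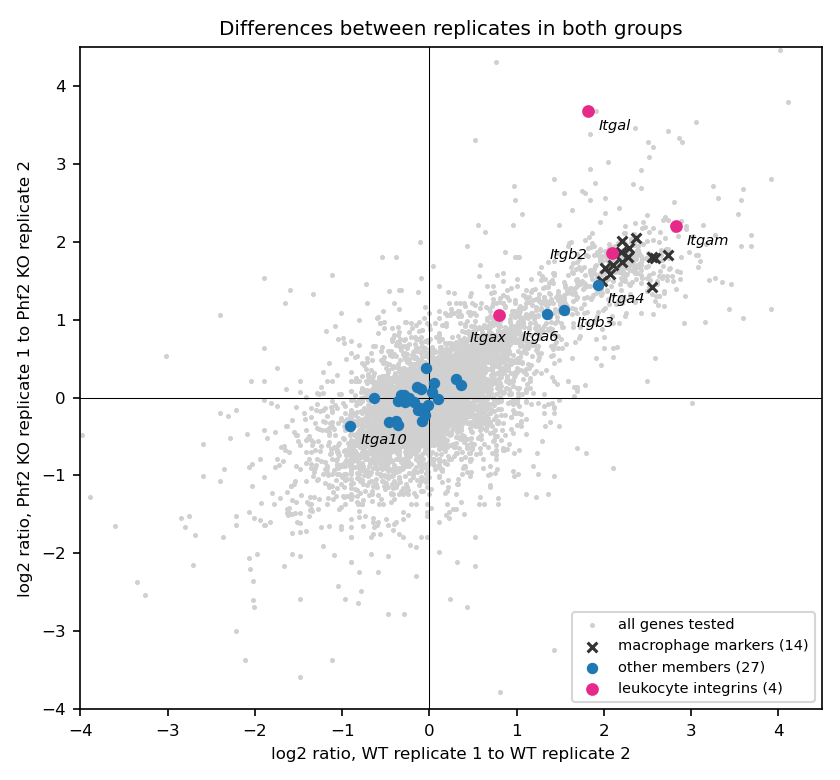
Log2 ratio of replicate 1 to replicate 2 in WT (x axis) and in *Phf2* KO (y axis) for each gene tested (grey), the 14 tested macrophage markers (crosses), the 4 tested leukocyte integrins (pink) and the 27 other members (blue), where 12 genes with a count of 0 are left out and 11 lie outside the axes. *Itgam*, *Itgb2*, *Itga4*, *Itgb3* and *Itga6* lie in the upper right with the macrophage markers, while most other members lie near 0.

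Beyond the 36 genes, 50 adhesome partners were read (other genes whose products are found at focal adhesions, such as tensins, adaptors and kinases). Of the 49 tested, 22 had positive and 27 negative fitted values with a median of -0.01. Without the replicate block, 0 were called in either direction by edgeR or DESeq2. With the block, edgeR called 5 higher (5.77% of all genes) and 1 lower (5.2% of all genes). They were *Nexn*, *Trip6*, *Ddr1*, *Fermt3* and *Arhgef7* (adjusted p from 1.7e-05 to 0.0467), and *Tns3*, the lower one (0.0590). Both *Phf2* KO libraries lay above both WT libraries for 4 of the 49 (15.5% of all genes) and below for 4 (18% of all genes). *Nexn*, an actin-binding adhesion protein of muscle, had the highest fitted value, 0.47 ± 0.32 on the log2 scale, with 24.98 and 42.1 CPM in WT and 37.5 and 55.2 CPM in *Phf2* KO. *Tns3*, a tensin that links integrin tails to actin, had the lowest, -0.28 ± 0.09, with 1108 and 1100.2 CPM in WT and 899.8 and 921 CPM in *Phf2* KO. Replicates of *Tns3* lay close together and the groups did not overlap (unadjusted p = 0.0331 in the edgeR quasi-likelihood test). *Ddr1*, a collagen receptor that is a tyrosine kinase and not an integrin, had 178 and 210.0 CPM in WT and 233 and 241 CPM in *Phf2* KO, and the zyxin relative *Trip6* had 67.8 and 85.4 beside 89.8 and 99.8 CPM. *Arhgef7*, an exchange factor recruited to adhesions with paxillin partners, had 181 and 171 CPM in WT and 226 and 192 CPM in *Phf2* KO. The kindlin of blood cells, *Fermt3*, followed the replicate numbers, with 60.7 and 68.9 CPM in the libraries numbered 1 and 13.6 and 19.6 CPM in those numbered 2.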

How the data were processed

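RNA-seq counts of 2 WT and 2 *Phf2* KO MEF samples were analysed. Per the paper's methods, Trim Galore was used for trimming and bowtie2 for removal of ribosomal RNA reads, after which STAR (reverse stranded) mapped reads to mm9 and featureCounts gave counts per gene. The deposited values are whole-number counts, not normalized. Tool versions and the annotation release are not given in the sources used here. The authors' DESeq2 table (mean, fold changes, SE, p-values, direction call) was not used. Libraries held 21094743 to 26094268 counts on 16903 to 17325 detected genes.

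Counts were filtered with filterByExpr, scaled by TMM and tested for genotype with edgeR 4.0.16 (glmQLFit, glmQLFTest) in R 4.3.3, calling genes at an adjusted p under 0.1 (Benjamini-Hochberg, 13668 genes). DESeq2 1.42.0, limma 3.58.1 (voom), other scalings and filters, a threshold of 0.05, a replicate block and leaving out each library were alternatives. Scripts were tested on simulated data. CPM values use TMM library sizes, and ratios within a replicate number come from them. Positions and exon lengths are from GENCODE M1 on NCBIM37 (mm9), on which all 36 genes were placed. Promoters are from RefSeq (GRCm38.p6), and no coordinates were converted. Tables were made with pandas 2.3.3 and NumPy 2.4.6, and figures with Matplotlib 3.10.9, in Python 3.11.15.

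The members and gene lists were chosen with earlier results of these data known. Fold changes are given for tested members outside the leukocyte integrins that were called by edgeR (with or without the replicate block) or DESeq2, or whose groups did not overlap with a difference of at least 0.3 on the log2 scale, and for *Itgb1*, the leukocyte integrins and *Phf2*. From the lists, at most 6 genes called in any of these fits are named. *Dkk2*, *Tln1*, *Itga9* and the *Itgb*-named genes of the closing section were named after their values were seen. The fold change of *Itga11*, outside this rule, was added after its value was seen.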

Additional observations from a re-analysis of the deposited data

How the results depend on the processing

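The count of 0 called members did not change with RLE size factors, library size alone, the other filters, DESeq2, limma-voom, a threshold of 0.05 or any library left out. Whether replicate numbers pair the samples is not stated. Over 11556 genes, the difference between replicate 1 and 2 in WT and in *Phf2* KO had a Pearson r of 0.854 (genes are not independent), with *Xist* at 417 and 402 CPM in the libraries numbered 1 and at 0.499 CPM or less in those numbered 2, and the Y-linked *Ddx3y* at 0.483 CPM or less in the former and at 49.0 and 53.9 CPM in the latter. In both groups the numbers therefore separate female from male cells, so replicates 1 and 2 are not the same embryo, while whether same-numbered libraries share one is not stated. With a replicate block, edgeR called 5 members higher and 0 lower (*Itga1*, *Itga10*, *Itga7*, *Itgb2* and *Tln2*, adjusted p = 0.0107, 0.0398, 6.9e-05, 0.0262 and 9.5e-05), where 5.77% of all genes were called higher and 5.2% lower. That fit leaves 1 residual degree of freedom, and its common dispersion was 0.00363 against 0.0451. The alternatives chosen after seeing the data called 5 members higher (block at 0.05), 1 (DESeq2 with the block, *Tln2*, adjusted p = 0.0020) and 5 (limma-voom with the block). The block called 5 adhesome partners higher and 1 lower, and 4 integrin ligands each way. The log2 fold change of *Itgam* turned to 0.058 with limma-voom and to 0.050 with DESeq2 and the block. With a library left out, which unbalances the replicate numbers between the groups, the values reached -2.80 to 1.04 for *Itgal*, -1.62 to 1.89 for *Itgam*, -0.71 to 0.35 for *Itgax* and -0.99 to 1.62 for *Itgb2*. The median of the 27 members was 0.03 to 0.13 with a library left out and 0.01 to 0.03 otherwise. Of 148 values of named genes under the alternatives, 123 kept direction and side of the threshold, 15 passed it where they had not, and 10 changed sign. The causes were not tested. The 5 untested genes had at most 12 counts in a library, too few for a fold change.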

Other observations

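Among 35 integrin ligands on a chosen list, 33 were tested. Without the replicate block, 0 were called higher or lower in *Phf2* KO MEFs by edgeR or DESeq2. With the block, edgeR called 4 higher (5.77% of all genes) and 4 lower (5.2% of all genes). Of the 33, 15 had positive and 18 negative fitted values, with a median log2 fold change of -0.02 beside 0.01 over all genes tested. Both *Phf2* KO libraries lay above both WT libraries for 5 ligands (15.5% of all genes) and below for 9 (18% of all genes). *Postn*, periostin, a collagen-associated ligand of the integrins with *Itgav*, had 6875 and 4397 CPM in WT and 3528 and 3111 CPM in *Phf2* KO, the lowest fitted value of the list (log2 fold change -0.76 ± 0.25 SE, -0.96 and -0.50 within the replicate numbers, unadjusted p = 0.0306 in the edgeR quasi-likelihood test). *Egfl6*, an *Itga8* ligand of basement membranes, had 69.5 and 37.8 CPM in WT and 42.3 and 24.8 CPM in *Phf2* KO. *Lama5*, a laminin chain of basement membranes, had 78.2 and 197 CPM in WT and 160.3 and 239 CPM in *Phf2* KO, with overlapping groups and WT replicate 1 the lowest, and *Lama2*, the chain of muscle laminin, had 47.1 and 39.7 CPM in WT and 30.6 and 36.9 CPM in *Phf2* KO. *Vcam1*, a ligand of *Itga4*, had 77.0 and 56.8 beside 54.2 and 52.8 CPM, and *Thbs2*, a thrombospondin, 2957 and 3348 beside 3816 and 3959 CPM. Neither overlapped between the groups. None of the 6 passed the test after adjustment without the replicate block. The blocked edgeR fit called all 6, with adjusted p from 7.9e-12 (*Lama5*) to 0.0948 (*Thbs2*).

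Integrin-named genes outside the symbol patterns were read for completeness. *Itgbl1*, a secreted protein with integrin-like EGF repeats, had 256 and 289.7 CPM in WT and 215 and 233 CPM in *Phf2* KO (log2 fold change -0.28 ± 0.11 SE, -0.25 and -0.31 within the replicate numbers, unadjusted p = 0.0499 in the edgeR quasi-likelihood test, not called without the replicate block and lower with it at an adjusted p of 0.0192). *Itgb1bp1*, which binds the *Itgb1* tail, stayed between 42.5 and 43.9 CPM in all 4 libraries. *Itgb1bp2* and *Itgb3bp* had at most 15 counts in any library, and *Itgb2l* had 0 in all 4, which allows up to 0.145 CPM in the shallowest library.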
